A study of Mus musculus with 6 samples.

Results

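The Sox family of transcription factors was examined through 10 of its genes in mouse fetal myotubes: Sox4, Sox5, Sox6, Sox7, Sox8, Sox9, Sox11, Sox12, Sox13 and Sox17. The genes were taken by name out of the 23061 genes with a RefSeq transcript that could be placed on NCBI Build 37 (mm9), and all 10 were placed. Chromatin came from primary myoblasts of wild-type C57BL/6 limb muscle of E18.5 fetuses, used at passage 17 and kept for 48 h in 2% horse serum, in which myoblasts fuse into myotubes. It was crosslinked with disuccinimidyl glutarate followed by formaldehyde, and immunoprecipitated with an antibody to Sox6 or with an antibody to the C-terminal repeat of RNA polymerase II (Pol II). DNA of the same chromatin before immunoprecipitation is the input. Each of the 3 groups (Sox6 ChIP, Pol II ChIP and Input DNA) holds 2 libraries, so there are 6 in all. All 6 come from untreated wild-type cells, so each comparison sets an immunoprecipitation against input, and p-values measure only the spread between these libraries.

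Sox proteins bind DNA through an HMG box, a domain related to that of the sex-determining factor Sry, and bend the DNA at short sites of the form ACAAAG or ACAATG. They are sorted by sequence into groups. SoxC (Sox4, Sox11, Sox12) holds activators of progenitor and developing cells, SoxD (Sox5, Sox6, Sox13) holds factors that pair through a coiled coil and have no activation or repression domain of their own, SoxE (Sox8, Sox9, Sox10) is known for cartilage, the gonad and the neural crest, and SoxF (Sox7, Sox17, Sox18) for endothelium. Sox6 is known in muscle for holding down genes of slow fibers in fast fibers. ChIP-seq of Pol II counts polymerase on a gene, paused or elongating, and does not measure mRNA.

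The Sox6 libraries hold 2985437 and 1468604 mapped reads, the Pol II libraries 1538757 and 2762155, and the inputs 21973495 and 24249850. Values are given as reads, as reads per 1000000 mapped reads of the library (RPM) or, where genes are compared with each other, as RPM per kb of gene (RPKM). A gene or peak is called higher or lower than input where the adjusted p of limma is under 0.05. At starts (1 kb to either side) the median gene held 2 to 3 reads in each immunoprecipitation, so single low values there are imprecise. Markers set the cell type: all 8 myotube genes on the list (Myog, Myh3, Acta1, Actc1, Ckm, Des, Tnnt3 and Ttn) had more Pol II than input at starts, where 40.7% of all genes did, and over bodies, where 38.9% did, with a median log2 ratio of 5.81 over bodies. Over bodies, where 24.3% of all genes were lower, no fibroblast, endothelial or glial marker of 6, 6 and 5 was higher and 5, 5 and 0 were lower, while of 6 chondrocyte markers 1 was higher (Comp) and 3 were lower. Summed over the list, Pol II over fibroblast markers was 51.3 and 38.0 RPM against 106 and 99.8 RPM in input, over chondrocyte markers 39.6 and 48.5 against 77.5 and 73.3, over endothelial markers 76.7 and 71.7 against 168 and 162, and over glial markers 18.2 and 17.4 against 18.6 and 20.9, and no marker was without Pol II reads in both libraries. At starts, where 1.36% of all genes were lower, 1 chondrocyte marker (Col11a2) was higher and 1 fibroblast marker (Dcn) was lower, and no endothelial marker was called.

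Sox6 peaks lay at 2 of the 10 genes, Sox6 itself and Sox8. The authors called peaks in each Sox6 library and listed 1066 that the 2 libraries have in common. In or within 20 kb of the 10 genes there were 3 common peaks, of which 2 lie inside Sox6 and 1 lies upstream of Sox8. Among all 23061 genes, 4.29% had a common peak in or within 20 kb. A further 3 peaks called in replicate 1 only and 2 called in replicate 2 only lie in or near Sox6, and none at another of the genes. The sequences of the 3 common peaks are shown because they are where both experiments placed Sox6 at a Sox gene. They are given on the plus strand of NCBI Build 37, as deposited intervals, with capitals for matches to a Sox site (ACAAAG or ACAATG), an E-box of the kind that myogenic factors bind (CAGCTG or CAGGTG), a Runx site (CCACA) or a Tead site (GGAATG), each on either strand.
Sox6 intron 5, chr7:122830402-122830541: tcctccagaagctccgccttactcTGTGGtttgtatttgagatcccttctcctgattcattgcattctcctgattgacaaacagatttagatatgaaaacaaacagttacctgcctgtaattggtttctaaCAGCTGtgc
Sox6 intron 5, chr7:122837162-122837241: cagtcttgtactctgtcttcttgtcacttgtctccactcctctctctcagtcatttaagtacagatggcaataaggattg
Sox8 upstream, chr17:25712602-25712801: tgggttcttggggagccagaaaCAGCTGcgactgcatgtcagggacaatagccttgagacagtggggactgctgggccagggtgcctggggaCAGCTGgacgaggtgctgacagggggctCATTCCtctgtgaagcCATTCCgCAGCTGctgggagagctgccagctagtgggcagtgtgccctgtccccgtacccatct

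The interval upstream of Sox8 holds 3 E-boxes and 2 Tead matches, the first interval of Sox6 holds 1 E-box and 1 Runx match, and the second holds none of the 4. None of the 3 holds a Sox site. Over all common peaks, whose median width is 140 bp, 52.0% held a Sox site, 55.5% an E-box, 60.8% a Runx match and 23.4% a Tead match. Windows of 400 bp around the peak centres give more letters to search. There the second Sox6 peak held 1 Sox site, the first Sox6 peak and the Sox8 peak again held none, and 71.7% of all common peaks held at least 1. Each of the 3 windows held at least 1 E-box and at least 1 Runx match, against 80.0% and 85.1% of common peaks. A match describes letters and not occupancy, and the short intervals limit what can be found in them. Only exact matches to the listed letters were counted, unlike in the study's own motif search, so a looser Sox motif would be missed.

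The Sox6 gene spans 567 kb (chr7:122614858-123182258, minus strand, 16 exons in the longest model), and both common peaks are in intron 5, 352 and 345 kb from the start. At the first of them, 450 bp around the centre held 10 and 10 Sox6 reads (3.35 and 6.81 RPM), with 15 and 7 in input (0.683 and 0.289 RPM) and 0 and 4 in Pol II ChIP. At the second, the same window held 8 and 5 Sox6 reads (2.68 and 3.405 RPM), with 8 and 10 in input (0.364 and 0.412 RPM) and 2 and 2 in Pol II ChIP. Both Sox6 libraries were above both inputs at each peak. The log2 ratios of Sox6 over input were 3.42 ± 0.49 (SE, adjusted p 7.27e-12) and 2.996 ± 0.63 (adjusted p 2.70e-06). These peaks were called on the same reads, and 96.8% of all common peaks passed the same test, so the ratios give the size of the signal and no independent support for it.

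The Sox6 gene is one of 68 genes with at least 2 common peaks inside. It is also long. Of 936 genes of at least 200 kb, 13.9% held a common peak and 26 held at least 2, and together they carried 0.426 common peaks per Mb, against 3.52 per Mb in Sox6, a value that rests on 2 peaks. Over 4 measures (Pol II and Sox6 log2 ratios at starts and bodies), the genes nearest to Sox6 among 67 others with at least 2 common peaks inside were Auts2 at a Euclidean distance of 0.618, Sfi1 at 0.942 and Met at 0.955. The start ratios of Auts2 (Pol II -0.51, Sox6 0.26) equal those of Sox17, which rest on 0 and 0 Pol II reads and 1 and 0 Sox6 reads. Sfi1 held 11230 and 13652 input reads over only 61.6 kb, and 13 common peaks. Its input is thus far denser than that of Sox6, with 8041 and 8222 reads over 567 kb.

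The 2 qPCR amplicons that the study designed for Sox6 lie at these peaks. The amplicon named Sox6 (1) ends just before the second peak interval, and the one named Sox6 (2) overlaps the first peak interval. Their sequences are printed because they add the flanks that a primer pair covers, again with motif matches in capitals.
Sox6 (1), chr7:122837074-122837158: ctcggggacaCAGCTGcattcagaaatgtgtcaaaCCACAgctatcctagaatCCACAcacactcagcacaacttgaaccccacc
Sox6 (2), chr7:122830346-122830418: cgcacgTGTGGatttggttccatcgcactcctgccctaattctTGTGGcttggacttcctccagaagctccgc
With their primers, Sox6 (1) holds 1 E-box and 2 Runx matches and Sox6 (2) holds 2 Runx matches. Reads were counted in a window around each amplicon that is wider than the amplicon itself. Sox6 reads around Sox6 (1) were 7 and 5 against 8 and 9 in input, 7.33 times as many in RPM over pooled reads. Around Sox6 (2) they were 7 and 10 against 18 and 10, 6.30 times in RPM. Around the intergenic control amplicon (chr14:55921902-55921999) they were 0 and 1 against 8 and 5, 0.798 times in RPM. In RPM, both Sox6 libraries were above both inputs around both Sox6 amplicons. The control had no read in replicate 1 and 1 read in replicate 2. These counts share reads with those that called the 2 peaks, and the control was chosen without a peak. They are therefore no independent support for the peaks. The study's own ChIP-qPCR of its peaks, which it reported as enriched, is separate evidence.

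The 5 peaks called in only 1 library could be checked with the reads of the other library, which the caller did not use for them. The peaks of replicate 1 lie in intron 4 at 288 and 332 kb and in intron 13 at 529 kb from the start. Those of replicate 2 lie in intron 2 at 231 kb and 3927 bp past the end of the gene. For the peak at 288 kb, replicate 2 held 8 Sox6 reads against 16 in its far deeper input, 8.26 times as many in RPM (exact binomial test, two-sided, adjusted p 0.000119, with adjustment over all peaks called in the same library). For the peak at 231 kb, replicate 1 held 10 against 10, 7.36 times (exact binomial, adjusted p 6.96e-05). Past the end of the gene, replicate 1 held 8 against 14, 4.21 times (exact binomial, adjusted p 0.00395). The peaks at 332 kb (3 reads against 14, adjusted p 0.0929, exact binomial) and 529 kb (1 against 8, adjusted p 0.456, exact binomial) did not pass. So 1 of 3 peaks of replicate 1 and 2 of 2 of replicate 2 passed the test for Sox6 above input in the other library, against 51.4% and 64.3% of all such peaks without a partner. The test set each library against the input with the same replicate number and covers counting error only. With both inputs pooled, the same numbers of peaks passed.

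The 3 intervals that passed are shown with the same capitals, since each passed the test for Sox6 above input in a library that had not called it.
Sox6 intron 4, chr7:122894692-122894791: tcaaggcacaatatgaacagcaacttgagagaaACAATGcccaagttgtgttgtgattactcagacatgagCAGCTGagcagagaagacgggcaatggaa
Sox6 intron 2, chr7:122951492-122951651: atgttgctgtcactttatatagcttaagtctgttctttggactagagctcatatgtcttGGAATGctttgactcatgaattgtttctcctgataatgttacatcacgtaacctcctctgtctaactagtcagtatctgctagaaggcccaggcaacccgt
past the end of Sox6, chr7:122610872-122610931: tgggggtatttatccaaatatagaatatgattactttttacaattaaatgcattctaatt
The intron 4 interval shown here is the only one of the 8 deposited intervals at Sox6 and Sox8 with a Sox site, and it also holds 1 E-box. This depends on interval width. In windows of 400 bp, the peaks at 231, 332, 345 and 529 kb also held 1 Sox site each. At the 288 kb peak, which is this intron 4 interval, Pol II reads were 4 and 8 (2.60 and 2.90 RPM) against 10 and 16 in input (0.455 and 0.660 RPM). This is 4.96 times as many in RPM over pooled reads (95% exact interval of counting error 2.28 to 10.2). Both Pol II libraries were above both inputs there. No Pol II peak of the authors overlaps it. This Pol II ratio is the largest among the peaks at Sox6. The others ran from 1.65 to 3.58, with 3.58 (1.16 to 9.42) at the 529 kb peak.

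**Figure D1:**
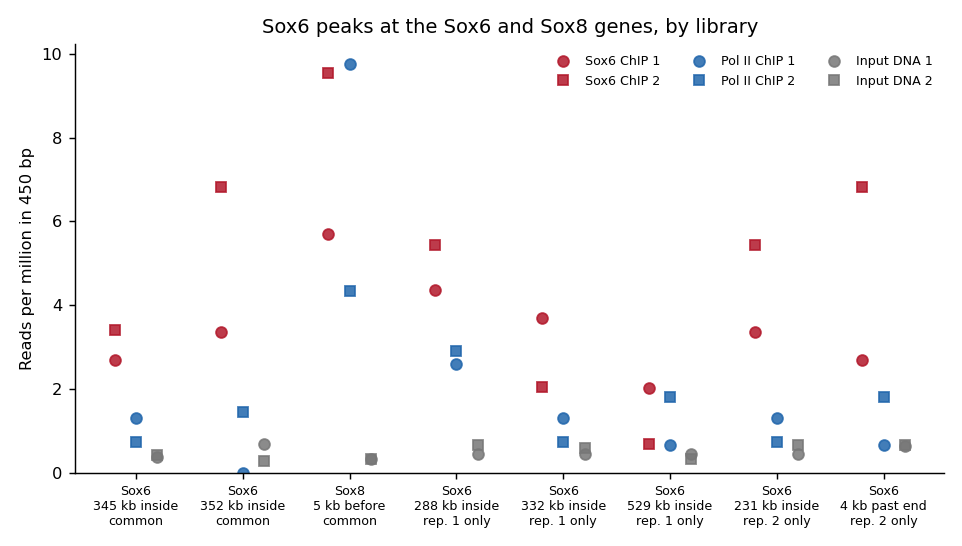
RPM in 450 bp around the centre of each of the 8 Sox6 peaks at the Sox6 and Sox8 genes (y axis), by peak with its distance from the gene start and the list it belongs to (x axis), with circles for replicate 1 and squares for replicate 2. Sox6 ChIP is above input in both libraries at all 8 peaks, with 0.681 RPM in replicate 2 at 529 kb as the lowest Sox6 value, and Pol II ChIP is at 9.75 and 4.34 RPM at the Sox8 peak.

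**Figure D2:**
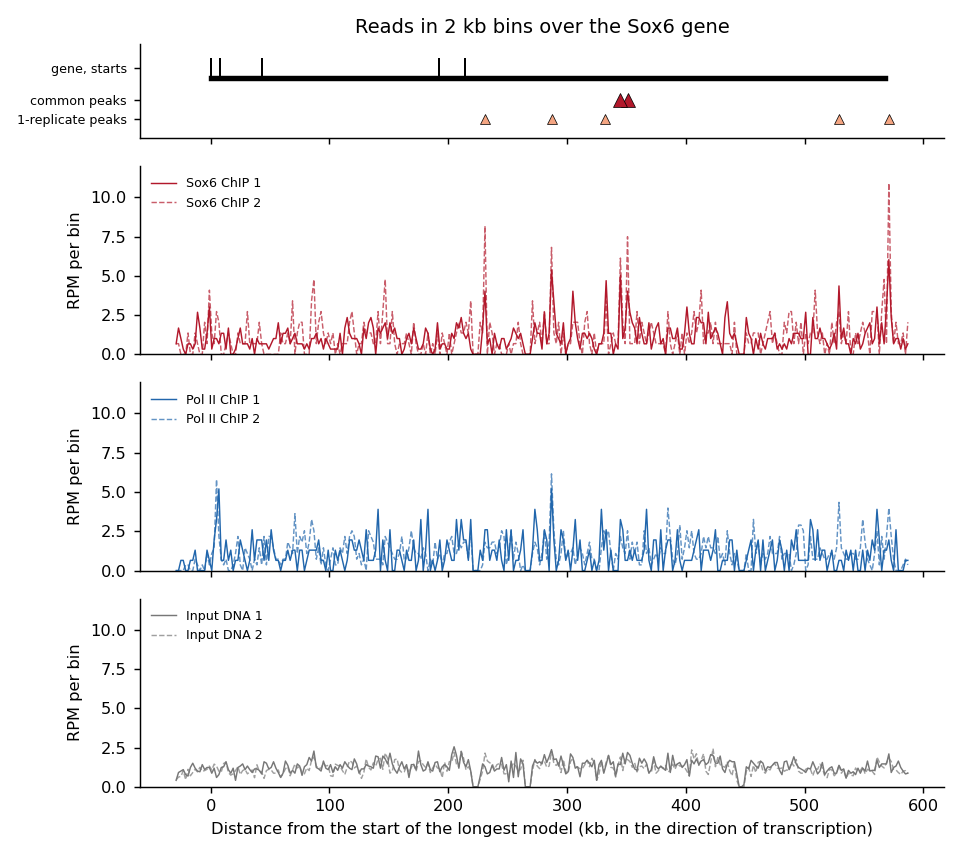
RPM in bins of 2 kb (y axes) by distance from the start of the longest Sox6 model in the direction of transcription (x axis, kb), for Sox6 ChIP, Pol II ChIP and input, with solid lines for replicate 1 and dashed lines for replicate 2. Ticks above mark the 5 annotated starts, dark triangles the 2 common peaks at 345 and 352 kb and light triangles the 5 peaks called in 1 library, and input ranges from 0 to 2.55 RPM per bin.

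The common peak at Sox8 had the largest Sox6 ratio of the 3 and was the only one at called Pol II peaks. Sox8, a SoxE gene that is also known from muscle satellite cells, is short (4795 bp, chr17:25702837-25707631, minus strand, 3 exons), and the peak centre is 5.07 kb before its start. The window held 17 and 14 Sox6 reads (5.69 and 9.53 RPM), with 7 and 8 in input (0.319 and 0.330 RPM), and 15 and 12 Pol II reads (9.75 and 4.34 RPM). Every library of both antibodies was above both inputs. The log2 ratio of Sox6 was 4.46 ± 0.48 (SE, adjusted p 1.98e-19), and Pol II over pooled reads was 19.4 times input (95% exact interval of counting error 9.93 to 39.1). Called Pol II peaks overlapped the interval in both replicates (chr17:25712531-25712891 in replicate 1 and chr17:25712731-25712791 in replicate 2), which was so for 142 of 1066 common peaks (13.3%). The peak is 722 bp from the end of 2810468N07Rik. That noncoding gene starts 230 bp from Sox8 on the other strand and runs toward the peak. The peak is thus nearer to it than to Sox8, and counting each peak for its nearest gene alone leaves 2 peaks, both in Sox6. Another gene, Lmf1, also lies within 20 kb of Sox8.

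No common peak lay within 50 kb of the other 8 genes, and 7.09% of all genes had one in or within that distance. The nearest was 105 kb from Sox11, 255 kb from Sox12, 272 kb from Sox13, 319 kb from Sox4 and 399 kb from Sox7. It was 2085 kb from Sox9, 2093 kb from Sox5 and 5733 kb from Sox17. Sox5, the SoxD relative that acts with Sox6 in cartilage, spans 381 kb and held no peak of any list.

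Sox6 ChIP passed the test against input at no start and over no body of the 10 genes. Of 10 genes tested at starts, none was called (limma, Benjamini-Hochberg at 0.05), 1 had an unadjusted p under 0.05, and with voom weights 0 were called, while 0.355% of all genes were called. Over bodies none was called, 2 had an unadjusted p under 0.05, with voom weights 0 were called, and 7.03% of all genes were called in either direction. The median log2 ratio of the 10 genes was 0.75 at starts and 0.24 over bodies, against 0.42 and 0.20 for all genes tested. These medians depend on the reads added to each count. With a pseudocount equal in RPM, the medians of all genes tested were 0.08 at starts and 0.11 over bodies. The share of higher calls among all genes called over bodies was 76.6%, and 27.9% when ratios were centred on the median gene. Leaving out Sox6 replicate 1 called 6 of the 10 genes at starts and 4 over bodies (47.8% and 50.1% of all genes), and leaving out replicate 2 called 2 and 3 (27.3% and 31.5%), in fits where the lone Sox6 library is taken to vary like the far deeper inputs.

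The gene with the largest Sox6 ratio over its body was Sox8. Its body held 13 and 9 Sox6 reads (4.35 and 6.13 RPM) against 53 and 53 input reads (2.41 and 2.19 RPM). Both Sox6 libraries were above both inputs, with a log2 ratio of 1.22 ± 0.36 (SE, adjusted p 0.0715). Without Sox6 replicate 1 the ratio was 1.48 and without replicate 2 it was 0.96, and both of these fits called it. Sox13, a SoxD gene named as an islet antigen and known in T cells, followed among the long genes, with 53 and 36 Sox6 reads (17.8 and 24.5 RPM) against 311 and 378 (14.2 and 15.6 RPM). Its log2 ratio was 0.50 ± 0.20 (SE, adjusted p 0.134). Its libraries did not overlap, and the fit without Sox6 replicate 1 called it, at 0.74. At the start of Sox5 and over the bodies of Sox4, Sox11 and Sox17 the sign differs with the library kept. The start of Sox5 held 8 and 0 Sox6 reads, with log2 ratios of -1.24 without replicate 1 and 1.83 without replicate 2. The body of Sox4 held 13 and 1, with -1.23 and 0.92. The bodies of Sox11 and Sox17 held 0 and 3 and 0 and 2 reads, with 2.42 and -1.41 for Sox11 and 0.78 and -2.57 for Sox17.

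Before the first start of Sox6 both Sox6 libraries had a small rise. The 2 kb upstream held 9 and 6 Sox6 reads (3.01 and 4.09 RPM) against 27 and 32 input reads (1.23 and 1.32 RPM). The pooled ratio was 2.64 (95% exact interval of counting error 1.39 to 4.71), and this block was chosen after its values were seen. Pol II held 1 and 1 reads there. The authors listed no Sox6 peak in it.

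Pol II was above input at some of the 10 genes, and the genes above it belong to SoxC and SoxE. All 3 SoxC genes had more Pol II than input at starts and over bodies, Sox8 and Sox9 of SoxE did at starts and Sox9 over its body, and no SoxD gene and neither Sox7 nor Sox17 of SoxF did in either. Of the 10 genes, 5 were higher at starts and none lower, where 40.7% of all genes were higher and 1.36% lower. Over bodies 4 were higher and 4 lower, where 38.9% of all genes were higher and 24.3% lower. The share of higher calls among all genes called at starts was 96.8%, and it was 67.1% with centring on the median gene and 71.4% with a pseudocount equal in RPM. The median log2 ratio of the 10 genes was 1.30 at starts (1.33 with the 3 genes without Pol II reads set to the bound of 3 reads over both libraries) against 0.75 for all genes, and 0.30 over bodies against 0.17. The number of genes higher is near the background in both regions. With 2 to 3 Pol II reads at the median start, a level below input is hardly detectable there. The remaining SoxE gene, Sox10, which is not one of the 10, was not called, with 0 and 0 Pol II reads at its start against 11 and 12 and a log2 ratio of 0.34 ± 0.38 (SE, adjusted p 0.453) over its body. The order by group is a description and was not tested. In a culture, fewer cells with Pol II on a gene and less Pol II on it per cell cannot be told apart.

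**Figure D3:**
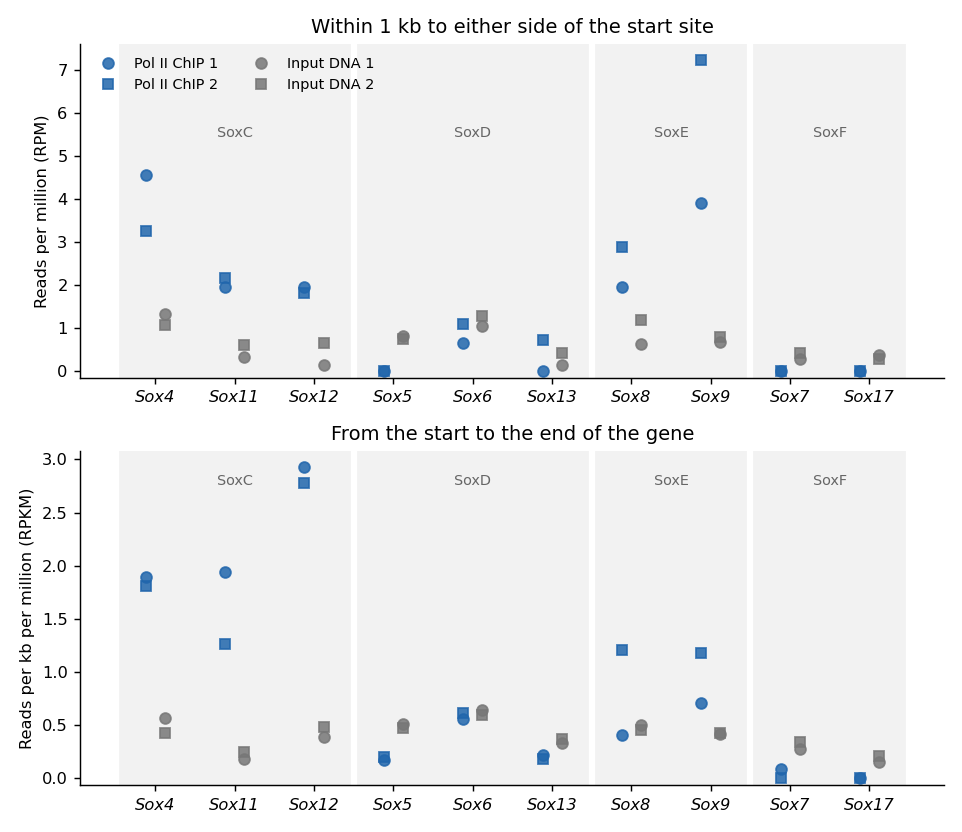
Pol II ChIP (blue) and input (grey) of each library at the 10 Sox genes, as RPM within 1 kb of the start (upper panel) and as RPKM over the gene (lower panel), with circles for replicate 1, squares for replicate 2 and shading for each Sox group. The 3 SoxC genes lie above both inputs in both panels, between 1.26 and 2.93 RPKM over bodies, while Sox7 and Sox17 lie below theirs.

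Sox12, a SoxC gene expressed broadly in the embryo, had the most Pol II per length. Its body (chr2:152219347-152223782, minus strand) held 20 and 34 Pol II reads, 2.93 and 2.77 RPKM, against 38 and 52 input reads, 0.390 and 0.483 RPKM. Both Pol II libraries were above both inputs, with a log2 ratio of 2.73 ± 0.29 (SE, adjusted p 3.67e-05). These levels are 11.1% and 7.75% of those of Actb, the cytoplasmic actin gene, at 26.4 and 35.8 RPKM, and the 92.1 and 91.2 percentile of all genes. The start held 3 and 5 Pol II reads against 3 and 16 input reads, and its log2 ratio of 2.69 ± 0.76 (SE, adjusted p 0.00129) rests on an unequal pair of inputs. It was 1.65 without Input DNA replicate 1 and 1.71 with a pseudocount equal in RPM, and neither fit called it. The start window is 70.3% G and C, and its inputs of 0.137 and 0.660 RPM lie below the median start of 0.865 and 0.948. The part of base composition in the result was not tested. It is the only gene of the 10 with a called Pol II peak inside, 1 peak in replicate 2 with 4 reads.

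Sox4, known for survival and specification of progenitors in many tissues, followed. Its body of 1 exon (chr13:29040788-29045582, minus strand) held 14 and 24 Pol II reads, 1.90 and 1.81 RPKM, against 60 and 50 in input, 0.569 and 0.430 RPKM. The Pol II libraries lay close to each other and above both inputs, at a log2 ratio of 1.93 ± 0.31 (SE, adjusted p 0.000485). At the start 7 and 9 reads (4.55 and 3.26 RPM) stood against 29 and 26 (1.32 and 1.07 RPM). The log2 ratio was 1.76 ± 0.42 (SE, adjusted p 8.74e-05), and 0.88, no longer called, when centred on the median gene. Of the start window, the kb after the start carried 5 and 5 Pol II reads against 13 and 8 and the kb before it 2 and 4 against 16 and 18.

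Sox11, a SoxC gene of developing neurons and mesenchyme, has an annotated model of only 2013 bp (chr12:28025562-28027574, minus strand, 1 exon), so its level rests on few reads. The body held 6 and 7 Pol II reads, 1.94 and 1.26 RPKM, against 8 and 12 in input, 0.181 and 0.246 RPKM. Both Pol II libraries were above both inputs, with a log2 ratio of 2.92 ± 0.56 (SE, adjusted p 0.00149). At the start 3 and 6 reads stood against 7 and 15, with a log2 ratio of 2.31 ± 0.68 (SE, adjusted p 0.00205). Centring on the median gene gave 1.43 and leaving out Input DNA replicate 1 gave 1.86, and both ended the call. The start window is 65.8% G and C.

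Sox9, the master regulator of cartilage and a SoxE gene, had the largest Pol II ratio at a start. The start (chr11:112643538, plus strand) held 6 and 20 Pol II reads (3.90 and 7.24 RPM) against 15 and 19 input reads (0.683 and 0.784 RPM). Both Pol II libraries were above both inputs, and the log2 ratio was 2.89 ± 0.44 (SE, adjusted p 2.47e-10). The body held 6 and 18 against 51 and 57, 0.704 and 1.18 RPKM against 0.419 and 0.424 RPKM, with a log2 ratio of 1.17 ± 0.37 (SE, adjusted p 0.0210). That call was lost without the first 1 kb of the gene (0.77), with centring (0.96) and without Input DNA replicate 1 or 2 (1.17 and 1.18). The Sox9 start lies 248 bp from that of BC006965, a noncoding gene on the other strand. Pol II reads were 5 and 11 in the kb before the Sox9 start and 1 and 9 in the kb after it, against 10 and 10 and 5 and 9 in input, so the reads cannot be assigned to either gene. Over its own 94332 bp BC006965 held 34 and 39 Pol II reads against 748 and 846, a pooled ratio of 0.492 (95% exact interval 0.384 to 0.622). Of the cartilage genes, which Sox9 is known to activate, Col2a1 (0.112 and 0.186 against 0.277 and 0.293 RPKM) and Acan (0.0738 and 0.118 against 0.258 and 0.248 RPKM) had less Pol II than input over their bodies, while Comp (0.839 and 1.02 against 0.385 and 0.421 RPKM) had more, and Col11a2 had more at its start (log2 ratio 2.22 ± 0.51, SE).

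Sox8 had more Pol II at its start but not over its body. The start held 3 and 8 Pol II reads (1.95 and 2.90 RPM) against 14 and 29 (0.637 and 1.20 RPM). Both Pol II libraries were above both inputs, with a log2 ratio of 1.56 ± 0.53 (SE, adjusted p 0.00835). The call ended with centring on the median gene (0.68), with all 6 libraries in 1 fit (1.56), with a pseudocount equal in RPM (1.16) and without Input DNA replicate 1 (1.12) or 2 (2.00). The body held 3 and 16 reads, 0.407 and 1.21 RPKM, against 53 and 53, 0.503 and 0.456 RPKM. Here the Pol II libraries fell on either side of input, with a log2 ratio of 0.67 ± 0.50 (SE, adjusted p 0.268). The ratio was 1.37 without Pol II ChIP replicate 1. With 1 kb added to either side of the body it was 0.93 and was called. As at Sox9 a noncoding gene, 2810468N07Rik, starts on the other strand, and 2 and 5 of the reads lie on its side of the Sox8 start against 1 and 3 on the side of Sox8.

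**Figure D4:**
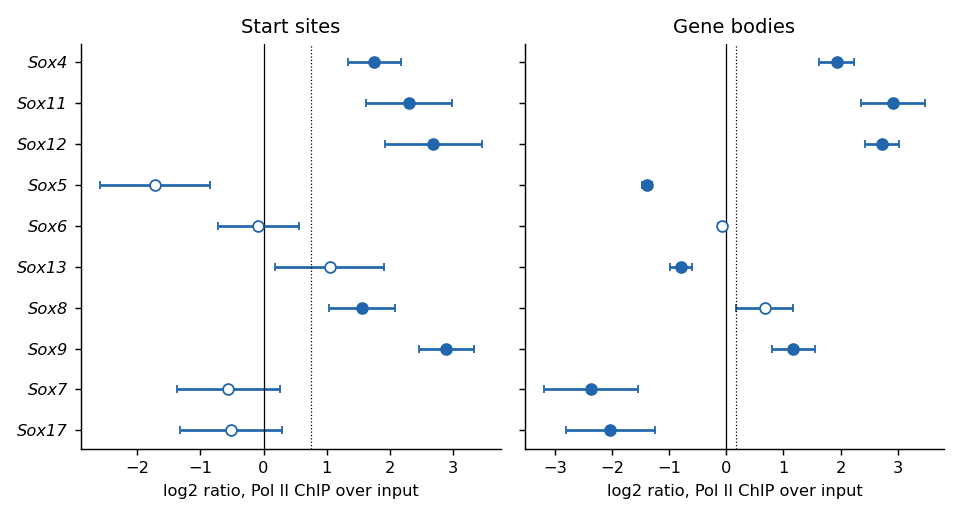
Log2 ratio of Pol II ChIP over input for each Sox gene at starts (left) and over bodies (right), with bars of 1 SE from limma over 2 libraries a group. Filled points passed an adjusted p of 0.05, the solid line marks 0 and the dotted line the median of all genes tested (0.75 at starts and 0.17 over bodies), and the SoxC genes lie to the right of both lines in each panel.

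Over their bodies, Sox5 and Sox13 of SoxD carried less Pol II than input and Sox6 was not called. Sox5 held 103 and 209 Pol II reads over its body (chr6:143776945-144158078, minus strand), 0.176 and 0.199 RPKM, against 4277 and 4398 in input, 0.511 and 0.476 RPKM. Both Pol II libraries were below both inputs, with a log2 ratio of -1.40 ± 0.09 (SE, adjusted p 1.38e-06). At its start no Pol II read was found in either library against 18 and 18 input reads, at least 1.12-fold lower if 3 reads over both libraries are taken as the limit. It was called lower with centring, with voom weights, with windows of 2 kb and with a pseudocount equal in RPM (log2 ratios -2.60, -1.72, -2.87 and -1.77). Without Pol II ChIP replicate 1 or 2 the ratio was -2.15 or -1.30, in fits where the lone Pol II library is taken to vary like the inputs. At the start of the longest model of any type, an alternative added after the data were seen, the log2 ratio was 0.79 and was not called. Sox13 over its 42.1 kb body (chr1:135278880-135320954, minus strand) held 14 and 21 reads, 0.216 and 0.181 RPKM, against 311 and 378, 0.336 and 0.371 RPKM. Both were below both inputs, at a log2 ratio of -0.80 ± 0.20 (SE, adjusted p 0.00637), which without Input DNA replicate 1 or 2 was -0.87 or -0.73 and was not called. Its start held 0 and 2 against 3 and 10, a log2 ratio of 1.05 ± 0.86 (SE, adjusted p 0.360), and 1.79 without Pol II ChIP replicate 1.

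Sox6, the protein that the other antibody targets, had Pol II over its body that did not separate from input. The libraries held 491 and 965 Pol II reads, 0.562 and 0.616 RPKM, against 8041 and 8222 input reads, 0.645 and 0.598 RPKM. These Pol II levels are the 56.1 and 58.4 percentile of all genes. The groups overlap, and the log2 ratio was -0.08 ± 0.07 (SE, adjusted p 0.392). With centring on the median gene it was -0.29 and was called lower. A ratio near input does not mean that Pol II is absent, since values are scaled to mapped reads. Over bodies, the median log2 ratios of the marker lists were -1.30 (fibroblast), -1.31 (endothelial), -0.78 (chondrocyte) and 0.02 (glial). At the start of the longest Sox6 model 1 and 3 reads stood against 23 and 31, a log2 ratio of -0.08 ± 0.64 (SE, adjusted p 0.941). In the gene models used, Sox6 has 5 annotated starts, at 0, 7.70, 43.7, 193 and 214 kb in the direction of transcription. Around the 4 later starts Pol II held 4 and 3, 2 and 3, 3 and 3 and 4 and 3 reads, with pooled ratios over input from 1.09 to 2.09 whose exact 95% intervals all hold 1.

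Between the starts, Pol II was above input in only the first stretch. From the first to the second start (7.70 kb) it held 16 and 29 reads against 73 and 112, 3.13 and 2.27 times input in replicates 1 and 2. The pooled ratio was 2.61 (95% exact interval of counting error 1.84 to 3.64), and in the other 4 stretches it was 0.747 to 0.964. The reads gather from 4 to 8 kb, where 13 and 22 Pol II reads stood against 30 and 56, a ratio of 4.37 (2.86 to 6.55), with 1.01 (0.473 to 1.94) from 0 to 4 kb and 0.471 (0.150 to 1.13) from 8 to 12 kb. These blocks were set after the profile was seen. A short gene of the other strand, 1110006G14Rik (chr7:123175493-123176064), starts 6.77 kb into Sox6 in the same block, with 2 and 1 Pol II reads of its own. Reads have no strand of transcription, so they cannot be assigned to Sox6 or to 1110006G14Rik. No Pol II peak of the authors lies inside Sox6.

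The promoters at the ends of this stretch, from 250 bp before to 50 bp after the start, are shown from RefSeq (build GRCm38.p6, minus strand, written 5′ to 3′), with the same motifs in capitals. RefSeq promoters were found for 7 of the 10 genes.
Sox6 first start, chr7:116038695-116038994: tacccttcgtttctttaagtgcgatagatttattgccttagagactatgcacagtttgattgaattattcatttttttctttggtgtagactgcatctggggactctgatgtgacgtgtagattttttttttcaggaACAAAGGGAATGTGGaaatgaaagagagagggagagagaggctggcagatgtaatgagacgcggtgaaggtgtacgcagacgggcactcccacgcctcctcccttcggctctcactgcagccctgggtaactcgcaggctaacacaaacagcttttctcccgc
Sox6 second start, chr7:116030998-116031297: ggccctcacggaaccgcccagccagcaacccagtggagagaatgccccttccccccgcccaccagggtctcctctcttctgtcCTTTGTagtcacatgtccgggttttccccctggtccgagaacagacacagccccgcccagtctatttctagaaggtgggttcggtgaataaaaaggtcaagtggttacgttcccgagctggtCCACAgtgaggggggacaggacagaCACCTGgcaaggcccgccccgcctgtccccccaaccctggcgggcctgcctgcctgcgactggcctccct
Both match NCBI Build 37 at the model starts described above. Each holds 1 Sox site, against 28.6% of all 32851 promoters of this length, the first with overlapping Runx and Tead matches beside it. The first is 47.0% and the second 63.3% G and C. The RefSeq promoters of Sox6 further inside the gene, not shown, held 4, 1, 3 and 0 Sox sites. The last of these lies 237135 bp from the model start and is not among the 5 annotated starts described above. Of the other genes, the promoters of Sox4, Sox8, Sox11, Sox12 and Sox13 held no Sox site, and that of Sox5, which belongs to a start 262 kb inside the longest model, held 1.

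**Figure D5:**
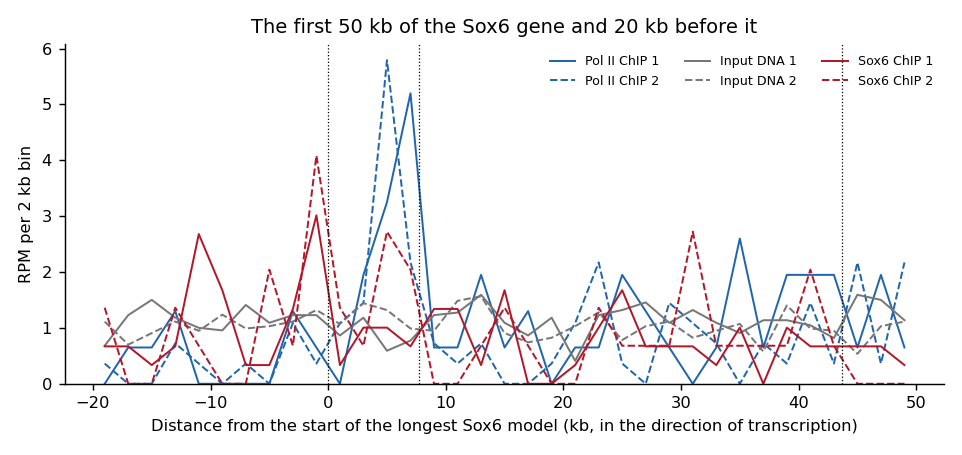
RPM in bins of 2 kb (y axis) from 20 kb before to 50 kb after the start of the longest Sox6 model (x axis, kb), for Pol II ChIP, input and Sox6 ChIP, with solid lines for replicate 1, dashed lines for replicate 2 and dotted lines at the annotated starts. Pol II rises in both replicates between the first and second start, and Sox6 ChIP in both replicates in the 2 kb before the first start, at 3.01 and 4.09 RPM.

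Sox7 and Sox17, known from endothelium as SoxF genes, had the least Pol II of the 10 genes. Sox7 over its body (chr14:64562511-64569569, plus strand) held 1 and 0 Pol II reads against 43 and 58, 0.0921 and 0 RPKM against 0.277 and 0.339 RPKM. The log2 ratio was -2.38 ± 0.82 (SE, adjusted p 0.0302), and -2.52 or -2.24, not called, without Input DNA replicate 1 or 2. Sox17 (chr1:4481009-4486494, minus strand) held 0 and 0 Pol II reads over its body against 18 and 28, which is at least 1.43-fold lower with 3 reads over both libraries as the limit. Its adjusted p was 0.0449, and the call ended without Input DNA replicate 1 (log2 ratio -2.28) or 2 (-1.80), with all 6 libraries in 1 fit, with at least 30 reads a gene and without the first 1 kb of the gene. At their starts neither gene had a Pol II read, against 6 and 10 input reads for Sox7 and 8 and 7 for Sox17, which did not pass at this depth. With a pseudocount equal in RPM both were called lower (-1.03 and -1.001). The remaining SoxF gene, Sox18, which is not one of the 10, was not called, with 0 and 4 Pol II reads over its body against 3 and 5 and a log2 ratio of 1.94 ± 0.99 (SE, adjusted p 0.117).

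In order of Pol II RPKM over the body in replicate 2, the genes ran Sox12, Sox4, Sox11, Sox8, Sox9, Sox6, Sox5, Sox13 and then Sox7 and Sox17 at 0. In replicate 1, Sox11 (1.94) stood just above Sox4 (1.90), Sox9 (0.704) and Sox6 (0.562) above Sox8 (0.407), and Sox13 (0.216) above Sox5 (0.176). In both replicates the steps from Sox12 to Sox4, from Sox6 to Sox5 and from Sox13 to Sox7 were larger than the difference between the libraries of the genes on either side. The step from Sox9 to Sox6 was larger than that difference in replicate 2 and smaller in replicate 1. Each of the other steps in this order was within it in at least 1 replicate.

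The lists around the family, chosen with earlier results of these data known, give the setting. Of the 10 other Sox genes, 9 had a model and 6 passed the read filter for Pol II in each region. The shares of all genes higher were 38.9% over bodies and 40.7% at starts, and 24.3% were lower over bodies. Sox15, a gene of myoblasts, was the one that was higher, at 1.38 and 3.33 RPKM against 0.644 and 0.642 RPKM (log2 ratio 1.84 ± 0.53, SE, adjusted p 0.0133), and it was also the one higher at starts, at a log2 ratio of 2.52 ± 0.34 (SE). Sox30 was lower over its body (-2.23 ± 0.26, SE). Of the 4 related HMG box genes of the Wnt pathway, Tcf7 (log2 ratio 1.24 ± 0.17, SE) and Tcf7l2 (0.80 ± 0.09) were higher over bodies and Lef1 (-0.79 ± 0.11) lower, while Tcf7l1 (1.46 ± 0.46) and Tcf7l2 (1.37 ± 0.54) were higher at starts. Tcf7 was also higher in Sox6 ChIP over its body, at 0.942 and 0.958 RPKM against 0.519 and 0.562 RPKM (log2 ratio 0.82 ± 0.15, SE, adjusted p 0.0207), where 7.03% of all bodies were called. With a pseudocount equal in RPM no body was called for Sox6 ChIP, so this call ends there.

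All 5 genes of proteins known to act with Sox6 had more Pol II than input at starts and over bodies, where 40.7% and 38.9% of all genes did. They are Ctbp1 and Ctbp2, which encode corepressors, Hdac1, a histone deacetylase, Daxx, a chaperone and corepressor, and Dazap2. Over bodies the log2 ratios ran from 1.04 (Ctbp2) to 2.04 (Ctbp1), with a median of 1.57 against 0.17 for all genes tested, and at starts from 1.11 (Hdac1) to 3.42 (Ctbp1). Ctbp1 stood at 3.34 and 2.87 RPKM of Pol II against 0.727 and 0.778 RPKM in input, above Sox12 in both libraries. Its body was also higher in Sox6 ChIP, at 1.06 and 1.27 RPKM (log2 ratio 0.64 ± 0.15, SE, adjusted p 0.0418), a call that likewise ends with a pseudocount equal in RPM, and it was the 1 of these 5 bodies called for Sox6 against 7.03% of all.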

How the data were processed

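Sox6 ChIP, Pol II ChIP and input libraries of fetal myotubes were analysed, 2 of each, grouped by their labels. The authors aligned reads with Bowtie 0.12.5 to NCBI Build 37, kept uniquely mapped reads and, with SISSRs 1.4, called peaks over each experiment's own input. The common Sox6 peaks lie within 50 bp of each other. The deposited files hold positions of reads and peaks and no counts. The value column of the read files and the Sox6 lists' score column were not used, and the score of the Pol II peaks, whose unit the authors do not name, was not used either. Reads were 39 bp, and 36 bp in Input DNA replicate 1.

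Gene models are from GENCODE vM1 for genes with a RefSeq transcript, with the longest coding model of each. Reads were counted by their 5′ end within 1 kb of starts, over bodies and in 450 bp around peak centres. limma 3.58.1 (R 4.3.3) with a trend was fitted to log2 RPM with 0.5 reads added, over genes with at least 10 reads, two-sided, with Benjamini-Hochberg adjustment at 0.05 over all genes. Pooled ratios carry exact 95% intervals, which cover counting error only. The fit was tested on simulated data. Glial markers at starts are not reported here. The genes named are the 10 Sox genes and every Sox6 peak in or within 20 kb, Actb, lists of related genes, and the 3 genes most like Sox6. Members and lists were chosen with earlier results of these data known. Other pseudocounts, weights, filters, windows, regions, scaling, repeated positions, the replicate block and each library left out were tried.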

Additional observations from a re-analysis of the deposited data

How the results depend on the processing

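At starts, Pol II was higher at 2 and lower at 1 of the Sox genes with centring on the median gene, higher at 3 and lower at 3 with a pseudocount equal in RPM, and lower at 1 with voom weights or windows of 2 kb. Over all genes the number lower was 297, and 2774, 2909, 1263 and 978 under these 4 alternatives. Leaving out a library in turn gave 2 to 6 higher and 0 to 1 lower at starts and 1 to 4 lower over bodies. Sox6 against input at starts called 78 genes, and 134 with all 6 libraries in 1 fit, 21 with at least 30 reads, 7 with centring, 769 with no filter, 0 with a pseudocount equal in RPM, 209 with voom weights, 13 with windows of 2 kb, 416 with windows of 500 bp and 0 to 10493 with a library left out. Over bodies it called 1477 genes, and 897 with centring, 2844 with no filter, 0 with a pseudocount equal in RPM and 191 to 10516 with a library left out. Leaving out a library called 0 to 5 Sox genes higher and 0 to 1 lower at starts and 0 to 3 higher and 0 to 1 lower over bodies, and turned the sign of Sox6 ChIP at the Sox5 start (-1.24 and 1.83 without replicate 1 and 2) and over Sox4 (-1.23 and 0.92), Sox11 (2.42 and -1.41) and Sox17 (0.78 and -2.57). A Sox6 or Pol II library left alone in its group is taken to vary like the inputs. For the other changes the cause was not tested.

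With the replicate number as a block, Sox6 against input called 329 genes at starts and 4026 over bodies, among them 2 Sox genes, Sox8 and Sox13 (log2 ratios 1.22 and 0.50), and Sox17 lost its Pol II call over its body. Same-numbered libraries did not deviate together (correlation of deviations across genes -0.0591 to 0.0469), so the numbers were not taken as pairs in the limma fits. The 3 common peaks at Sox6 and Sox8 were called under every alternative tried, and counts of single-library peaks with Sox6 in the other library stayed at 1 of 3 and 2 of 2. Using the longest model of any type, an alternative added after the data were seen, changed none of these counts of Sox genes. The low number of ChIP reads limits all values at single starts.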
